A study of Rattus norvegicus with 12 samples.

Results

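The tricarboxylic acid (TCA) cycle and mitochondrial fatty acid oxidation were examined at the mRNA level in primary rat atrial fibroblasts, through 42 genes taken from tables of 22850 features. The members were the features whose symbol stood in a written list that covers the pyruvate dehydrogenase complex and pyruvate carboxylase, the TCA cycle without complex II, the carnitine shuttle, β-oxidation and regulators of the PPAR family. All 42 symbols were found, and all 42 members passed the filter on low counts in each of the 3 comparisons.

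The cells came from the atria of Sprague-Dawley rats 1 to 3 days old and were separated from myocytes by a plating step of 45 min, which enriches fibroblasts but does not sort them. Every culture received angiotensin II (AngII, 1 μmol/L), a vasoactive peptide that activates fibroblasts, for 48 h in DMEM with 2% fetal bovine serum. The AngII group received nothing else, the AngII+HNG group also received 10 μmol/L HNG, an analogue of the mitochondria-derived peptide humanin, and the AngII+MOTS-c group 5 μmol/L MOTS-c, a peptide encoded within mitochondrial 12S rRNA. Either peptide was added 1 h before AngII. Each group comprised 4 libraries, 12 in all, and no cells without AngII and no cells given a peptide alone were used here, so the comparisons address what each peptide did on top of AngII. The study calls the libraries biological replicates, but the labels name no separate cultures, and the p-values measure the spread between these libraries.

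The libraries held 27960586 to 38322354 counts. All 12 fibroblast markers, among them Col1a1, Dcn and Pdgfra, were present, with a summed level of 72730 to 80440 CPM, the count after division by the TMM-adjusted library total. Cardiomyocyte markers summed to 5975 to 7937 CPM in every group, with 0 of 12 absent, while 5 of 5 adipocyte markers stayed below 1 CPM. AngII+HNG replicate 3 stood apart by gene length: the median kept gene shorter than 1000 bases lay 0.21 above its mean over the 12 libraries on the log2 scale in that library, against -0.048 to 0.055 in the other 11.

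In the mitochondrial matrix, the pyruvate dehydrogenase complex turns pyruvate into acetyl-CoA, which citrate synthase joins to oxaloacetate to start the TCA cycle. Long-chain fatty acids reach the matrix as carnitine esters and are shortened by repeated dehydrogenation, hydration, a second dehydrogenation and thiolysis, each round yielding acetyl-CoA. Working atrial muscle relies heavily on this oxidation, and the nuclear receptors PPARα and PPARδ with the coactivators PGC-1α and PGC-1β raise the transcription of many of its enzymes.

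The 42 members share no sequence feature by construction, so their promoters were read from RefSeq windows of assembly GRCr8, which run from 250 bases before to 50 bases after each annotated start and were available for 35 members. The pair Hadhb and Hadha is shown first because these genes encode the β and α subunits of 1 complex, the mitochondrial trifunctional protein, and face away from each other on chromosome 6. Their annotated ends leave a stretch of 243 bases, at chr6:31907558-31907800, read here on the plus strand with Hadha to the right and Hadhb to the left. Capitals mark the only match to the GC box letters GGGCGG, which lies on the minus strand.
Hadhb to Hadha: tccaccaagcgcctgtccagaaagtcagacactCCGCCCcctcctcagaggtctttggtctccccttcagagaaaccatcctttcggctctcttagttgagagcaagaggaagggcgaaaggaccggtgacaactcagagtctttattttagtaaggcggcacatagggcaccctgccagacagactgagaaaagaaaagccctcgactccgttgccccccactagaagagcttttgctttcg

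A total of 8 motifs were searched on both strands of the 250 bases before the start in each window. The 50 bases after it were not searched. The cAMP response element TGACGTCA occurred in 4 of 35 member windows (11.4%), against 1.59% of 33469 windows of all genes, and the GC box GGGCGG in 23 of 35 (65.7%), against 30.5%. The CCAAT box, searched as CCAAT, was present in 12 of 35 windows (34.3%), against 34.0% of all windows. The nuclear receptor letters AGGTCA were found in 4 windows (11.4%) against 14.1%, and their direct repeat with 1 base between the copies, the form that PPAR and its partner RXR bind, in 0 of 35 against 0.0508%. The estrogen-related receptor element TCAAGGTCA, which contains AGGTCA, occurred in 0 of 35 windows against 0.388%, the NRF1 site in 1, that of Ppara, against 0.762%, and the E-box CACGTG in 2 (5.71%) against 5.59%. A match is a run of letters in these 250 bases and not a shown binding site, and these shares were not tested.

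The 4 stretches with the cAMP response element are printed, with the element in capitals, because they belong to members of different roles: the coactivator gene Ppargc1a, the medium-chain dehydrogenase gene Acadm, and the TCA cycle genes Mdh2 and Ogdh. They were chosen after the matches were seen. Each is 60 bases long and reads toward its gene: Ppargc1a on the plus strand at chr14:63634101-63634160, Acadm on the minus strand at chr2:245542934-245542993, Mdh2 on the minus strand at chr12:26543925-26543984 and Ogdh on the plus strand at chr14:85363906-85363965. The element began 181, 103, 117 and 99 bases before the annotated start, in that order.
Ppargc1a: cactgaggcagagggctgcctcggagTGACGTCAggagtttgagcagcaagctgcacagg
Acadm: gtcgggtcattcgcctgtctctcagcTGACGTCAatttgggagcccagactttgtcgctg
Mdh2: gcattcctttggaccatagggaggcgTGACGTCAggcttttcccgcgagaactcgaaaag
Ogdh: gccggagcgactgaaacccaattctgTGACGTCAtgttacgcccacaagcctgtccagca

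Levels were compared between genes in FPKM as deposited, the fragments mapped to a gene scaled to its length and to the library total. The members were on the whole abundant mRNAs. Their median level was 30.7 FPKM, against 7.17 FPKM over 14686 kept genes. The median coefficient of variation of CPM within treatments was 4.63%, against 6.37%, and genes of matching level were not compared. The members ranged from 0.444 FPKM for Ehhadh to 148.6 FPKM for Pdha1, and together took 0.368% ± 0.0023 (SD, n = 4) of all counts with AngII, 0.376% ± 0.0041 with AngII+HNG and 0.364% ± 0.0070 with AngII+MOTS-c. In bulk RNA of this kind, fewer cells of a type and less RNA per cell cannot be told apart.

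**Figure D1:**
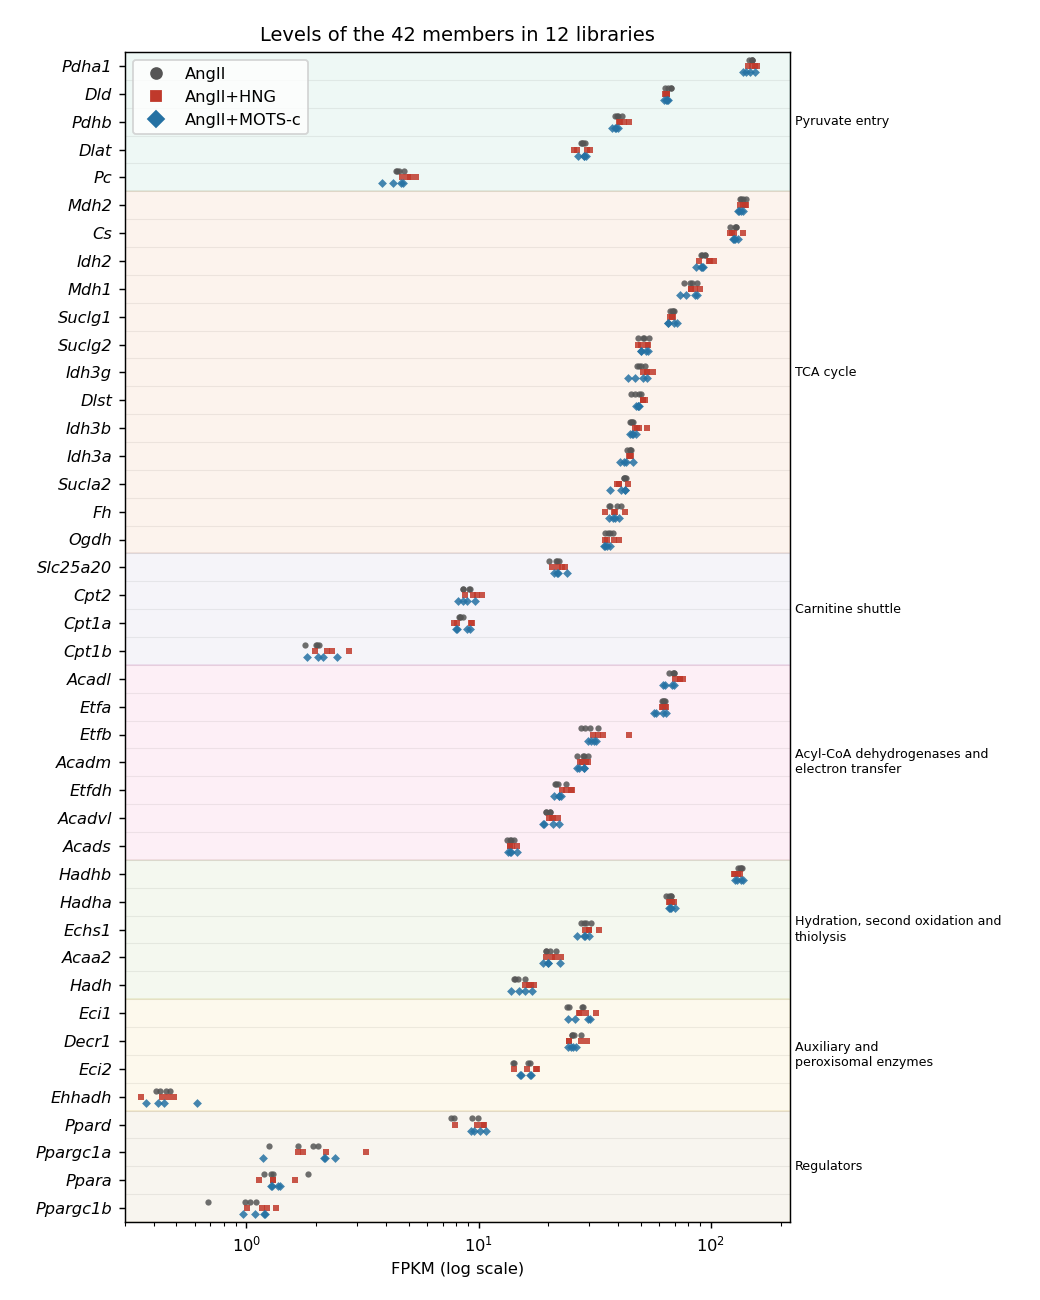
FPKM of the 42 members on a log axis, ordered by role and by mean level, with 1 point per library and a colour and symbol for each of the 3 treatments. The levels span 0.444 to 148.6 FPKM in the mean over 12 libraries, and the points of the 3 treatments lie on each other for nearly every gene.

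Among the genes of pyruvate entry, Pdha1, the catalytic α subunit of pyruvate dehydrogenase, was the highest. It measured 150.5, 150.4, 150.2 and 145.6 FPKM with AngII, 154.8, 157.3, 144.4 and 150.4 with AngII+HNG, and 146.8, 154.2, 141.2 and 137.5 with AngII+MOTS-c. The treatments overlapped throughout. Dld, the dihydrolipoyl dehydrogenase shared with the oxoglutarate complex, averaged 64.8 FPKM over 12 libraries, Pdhb, the β subunit, 40.1, and Dlat, the acetyltransferase core, 28.0. Pdha1 thus stood 3.71 ± 0.19 (SD, n = 12) times above its partner Pdhb. Pc, the pyruvate carboxylase that refills oxaloacetate, was the lowest of the group at 4.64 FPKM, with 4.41 to 4.78 in the AngII libraries, 4.66 to 5.36 with AngII+HNG and 3.86 to 4.75 with AngII+MOTS-c.

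The 13 TCA cycle members formed the most abundant role, with a summed level of 863.2 ± 11.6 FPKM with AngII, 882.4 ± 23.3 with AngII+HNG and 852.4 ± 20.3 with AngII+MOTS-c (SD, n = 4 each). Mdh2, the mitochondrial malate dehydrogenase, led with 138.0, 142.1, 133.4 and 134.2 FPKM in the AngII libraries, 133.6, 139.8, 137.0 and 141.1 with AngII+HNG, and 132.5, 136.9, 131.1 and 134.3 with AngII+MOTS-c. Its neighbour in the order was Cs, citrate synthase, at 126.9 FPKM, and the 2 ranges overlapped (Cs in the treatment means 126.4 ± 3.34, 127.0 ± 7.58 and 127.2 ± 2.69).

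Idh2, the NADP-dependent mitochondrial isocitrate dehydrogenase, averaged 93.5 FPKM, while the 3 subunits of the NAD-dependent enzyme lay close together at 44.2 (Idh3a), 47.0 (Idh3b) and 50.7 FPKM (Idh3g). Idh3a to Idh3b stood at a ratio of 0.943 ± 0.040 (SD, n = 12) and Idh3a to Idh3g at 0.874 ± 0.039. Ogdh, the first component of the oxoglutarate dehydrogenase complex, had the lowest mean level of the cycle at 36.4 FPKM, with 34.9 to 38.0 in the AngII libraries, 34.9 to 40.4 with AngII+HNG and 34.6 to 36.9 with AngII+MOTS-c. Its succinyltransferase partner Dlst averaged 49.2 FPKM.

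Of the succinyl-CoA ligases, the shared α subunit Suclg1 averaged 68.0 FPKM. The GTP-forming β subunit Suclg2 stood at 51.5 FPKM, 1.24 ± 0.064 times (SD, n = 12) the ATP-forming β subunit Sucla2 at 41.4 FPKM. Fh, fumarase, averaged 38.4 FPKM, and its range of 34.9 to 42.6 FPKM over the libraries overlapped that of Ogdh. Mdh1, the cytosolic malate dehydrogenase of the malate-aspartate shuttle, averaged 82.7 FPKM, with a ratio of Mdh2 to Mdh1 of 1.65 ± 0.081.

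The carnitine shuttle was a far lower role, at 41.7 ± 1.411 FPKM in sum (SD, n = 12). Slc25a20, the carnitine-acylcarnitine carrier of the inner membrane, contributed the most with 20.1, 21.5, 21.9 and 22.3 FPKM in the AngII libraries, 21.9, 23.6, 22.8 and 20.8 with AngII+HNG, and 21.9, 24.0, 21.2 and 21.7 with AngII+MOTS-c. Cpt1a, the liver-type form of the outer-membrane transferase that commits acyl chains to oxidation, averaged 8.52 FPKM, and Cpt2, its inner-membrane counterpart, 9.11 FPKM, a difference smaller than their spread, since their ratio ran from 0.793 to 1.121 over the libraries. Cpt1b, the muscle-type form, averaged 2.14 FPKM, and Cpt1a stood 4.03 ± 0.37 times (SD, n = 12) above it, with a lowest ratio of 3.37.

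Among the acyl-CoA dehydrogenases, Acadl, the long-chain enzyme, was the most abundant with 65.8, 69.3, 69.7 and 69.0 FPKM in the AngII libraries, 74.0, 70.0, 75.9 and 73.9 with AngII+HNG, and 63.3, 69.7, 62.3 and 68.4 with AngII+MOTS-c. The order below it was Acadm (medium-chain, 28.1 FPKM), Acadvl (very long-chain, 20.4) and Acads (short-chain, 13.8). Acadl exceeded Acadm 2.47 ± 0.13 times, Acadvl 3.40 ± 0.15 times and Acads 5.01 ± 0.33 times (SD, n = 12), and no library reversed this order. Acads lay between 13.2 and 14.2 FPKM with AngII, 13.6 and 14.6 with AngII+HNG, and 13.4 and 14.7 with AngII+MOTS-c.

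The dehydrogenases hand their electrons to the electron transfer flavoprotein, whose α subunit Etfa averaged 61.9 FPKM and whose β subunit Etfb 32.2 FPKM, and from there to Etfdh, its ubiquinone oxidoreductase, at 22.8 FPKM. Etfa was 1.95 ± 0.22 times Etfb (SD, n = 12). This ratio was lowest, at 1.43, in AngII+HNG replicate 3.

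For the later steps, Hadhb, the thiolase subunit of the trifunctional protein, measured 133.0, 130.8, 134.2 and 136.8 FPKM in the AngII libraries, 133.6, 131.5, 125.2 and 127.5 with AngII+HNG, and 134.9, 137.5, 129.7 and 126.9 with AngII+MOTS-c. Hadha, its divergently arranged partner shown above, averaged 67.2 FPKM, so that Hadhb stood 1.96 ± 0.082 times above it (SD, n = 12), with a range of 1.81 to 2.07. Echs1, the short-chain enoyl-CoA hydratase, averaged 29.2 FPKM, Acaa2, the matrix thiolase, 20.5, and Hadh, the short-chain hydroxyacyl-CoA dehydrogenase, 15.6, the lowest of the group.

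Of the auxiliary enzymes for unsaturated chains, Eci1 and Eci2, enoyl-CoA isomerases, averaged 27.5 and 15.9 FPKM and Decr1, the dienoyl-CoA reductase, 25.9 FPKM. Eci1 measured 24.1, 27.8, 24.5 and 28.2 FPKM with AngII, 27.4, 27.2, 32.1 and 28.9 with AngII+HNG, and 30.1, 24.3, 25.9 and 29.5 with AngII+MOTS-c. Ehhadh, the bifunctional enzyme of the peroxisome, was the lowest member at 0.354 to 0.613 FPKM over all libraries, and its mitochondrial counterpart Hadha stood 153.9 ± 20.3 times above it (SD, n = 12).

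The regulators were low except Ppard. Ppard, which encodes PPARδ, measured 7.86, 9.92, 9.34 and 7.65 FPKM with AngII, 10.51, 7.90, 10.44 and 9.81 with AngII+HNG, and 9.32, 9.59, 10.8 and 10.1 with AngII+MOTS-c. Ppara, which encodes PPARα, measured 1.85, 1.19, 1.31 and 1.28 FPKM with AngII, 1.63, 1.303, 1.13 and 1.298 with AngII+HNG, and 1.37, 1.28, 1.29 and 1.40 with AngII+MOTS-c. Ppard was above Ppara in every library, by 4.24 to 9.23 times.

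Ppargc1a, the PGC-1α gene, measured 1.94, 1.253, 1.66 and 2.03 FPKM with AngII, 1.67, 2.20, 1.75 and 3.29 with AngII+HNG, and 2.17, 2.401, 1.18 and 2.19 with AngII+MOTS-c. Ppargc1b, the PGC-1β gene, measured 1.10, 0.985, 0.684 and 1.04 FPKM with AngII, 1.01, 1.23, 1.17 and 1.35 with AngII+HNG, and 0.964, 1.09, 1.20 and 1.20 with AngII+MOTS-c. The ratio of Ppargc1a to Ppargc1b ran from 0.983 to 2.44 over the libraries, so their order did not hold in every one, and treatments overlapped for all 4 regulators. The FPKM values of Ppargc1a, Ppard and Ppara carry an additional spread, because the gene length that the FPKM and count imply varied between libraries by 17.7%, 12.5% and 7.05% (coefficient of variation), against less than 5% for the other 39 members. For these 3 genes the comparisons between treatments below therefore rest on counts.

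Treatments were compared on the counts, with edgeR's quasi-likelihood test fitted over all genes that passed the filter, and p-values were adjusted by Benjamini-Hochberg over them, a gene being called when its adjusted p lay below 0.05. Values by library in these comparisons are CPM after TMM scaling. No member was called in any of the 3 comparisons.

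HNG was compared with AngII alone to see whether the peptide moved these genes. With HNG, 0 of 42 members were called, against 5.98% of the 14524 genes tested, and 3 of 42 had an unadjusted p below 0.05, against 20.3%. Across the members 28 of 42 differences pointed up (66.7%), against 51.3% of all genes, with a median log2 difference of 0.035 against 0.0043. The 95% interval of the fold lay within 1.3-fold either way for 37 of 42 members and within 1.5-fold for 41, the exception being Ppargc1b. The 5 members whose interval ran past 1.3-fold were Cpt1b, Etfb, Ehhadh, Ppargc1a and Ppargc1b, all of them low except Etfb.

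The 3 members with the smallest p all belong to fatty acid oxidation. Hadh measured 27.8, 24.8, 25.8 and 25.2 CPM in the AngII libraries and 27.5, 28.9, 29.7 and 28.5 CPM with AngII+HNG. AngII replicate 1 lay among the AngII+HNG libraries, and the log2 difference was 0.15 (95% interval 0.032 to 0.26, adjusted p = 0.137, edgeR's quasi-likelihood test, Benjamini-Hochberg adjusted).

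Cpt1b measured 5.78, 6.08, 6.36 and 6.27 CPM with AngII and 7.15, 7.13, 6.26 and 8.83 CPM with AngII+HNG, a log2 difference of 0.27 (0.029 to 0.50, adjusted p = 0.193, edgeR with Benjamini-Hochberg adjustment). Only AngII+HNG replicate 3 fell within the AngII range, and the highest value was that of AngII+HNG replicate 4, without which the difference was 0.165 (adjusted p = 0.415). Beside this muscle-type gene, the cardiomyocyte markers summed to 6479 to 7338 CPM with AngII and 6779 to 7937 CPM with AngII+HNG, and 1 of 12, Tnni3, rose with HNG (log2 difference 0.43, adjusted p = 0.0131 in the same test), beside 5.98% of all genes called. The other 11 were not called, 8 pointing up and 3 down, from -0.15 for Myh7 to 0.22 for Ttn. Of the 12 markers, 5 had an unadjusted p below 0.05 in that test, against 20.3% of all genes. The part of these cells in the values of Cpt1b, or of the other members, was not tested.

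Etfb measured 25.5, 29.0, 26.7 and 24.6 CPM with AngII and 27.2, 28.6, 38.8 and 30.04 CPM with AngII+HNG, a log2 difference of 0.24 (0.026 to 0.45, adjusted p = 0.193, edgeR with Benjamini-Hochberg adjustment). The high value was AngII+HNG replicate 3, the library in which short genes stood above their mean, and Etfb, at 880 bases, is the shortest member. Without that library the difference was 0.12 (adjusted p = 0.344).

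The same library tilted the whole set by length. Its 21 members shorter than the median length of 2108 bases lay 0.118 above their 12-library mean in log2 CPM (median), and its 21 longer members lay at -0.051. In the other 11 libraries the shorter members lay between -0.055 and 0.028 and the longer between -0.042 and 0.044. With HNG against AngII, the median log2 difference of the members was 0.024 without AngII+HNG replicate 3 and 0.030 with the length trend removed, beside 0.035 with all libraries.

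**Figure D2:**
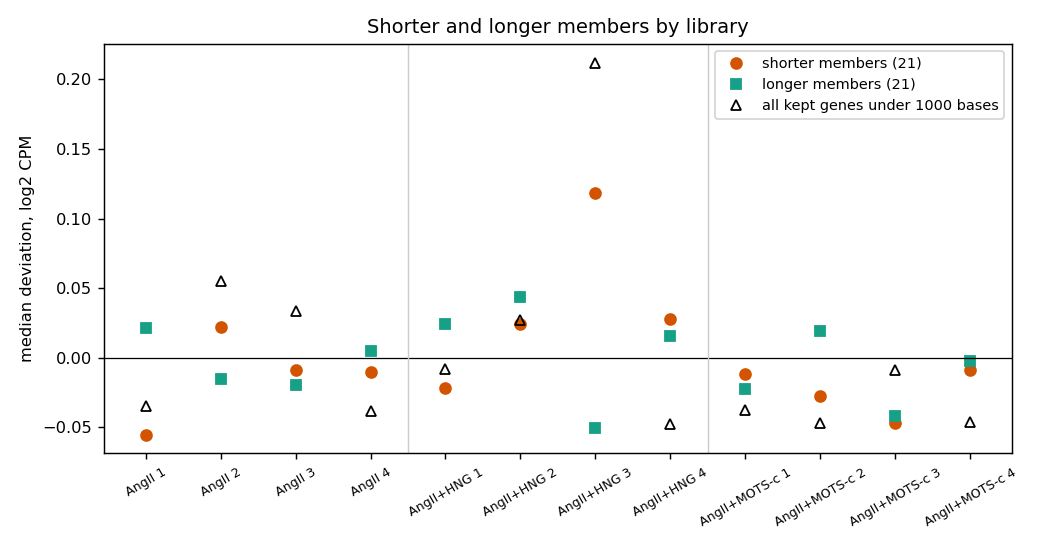
Median deviation of log2 CPM from the mean over 12 libraries, by library, for the 21 shorter members (circles), the 21 longer members (squares) and all kept genes under 1000 bases (triangles). AngII+HNG replicate 3 has its shorter members at 0.118, its longer members at -0.051 and all short genes at 0.21, the widest split of the 12 libraries.

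By role, 3 of 5 genes of pyruvate entry pointed up with HNG (median log2 difference 0.0062). Of the 13 TCA cycle genes 6 pointed up and 7 down, with a median of -0.0082. The 4 carnitine shuttle genes all pointed up (median 0.066), as did 5 of 7 in the dehydrogenase and electron transfer group (0.048), 4 of 5 in the hydration and thiolysis group (0.047), 3 of 4 auxiliary enzymes (0.033) and 3 of 4 regulators (0.10). The difference between roles was not tested.

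The groups did not overlap for 2 of 42 members, against 13.6% of all genes, and both lay higher with HNG, as did 7.03% of all genes. These were Idh3b, at 70.7 to 72.5 CPM with AngII and 73.9 to 82.1 CPM with AngII+HNG, and Dlst, at 150.7 to 157.7 and 158.6 to 161.7 CPM. The log2 differences were 0.094 (adjusted p = 0.251) and 0.058 (adjusted p = 0.375) in edgeR's test with Benjamini-Hochberg adjustment. Without AngII+HNG replicate 3 the difference of Idh3b was 0.057 (adjusted p = 0.407), and on log2 FPKM with limma that of Dlst was 0.10 (adjusted p = 0.171 to 0.179). They are named because they did not overlap, after their values were seen. Among the regulators the log2 differences were 0.17 for Ppargc1a (-0.079 to 0.41), 0.30 for Ppargc1b (-0.038 to 0.63), -0.046 for Ppara (-0.25 to 0.15) and 0.034 for Ppard (-0.068 to 0.14), all intervals at 95%. With a library left out they ran from 0.066 to 0.24 for Ppargc1a, lowest without AngII+HNG replicate 4, from 0.17 to 0.37 for Ppargc1b, lowest without AngII replicate 3, from -0.097 to 0.013 for Ppara, which changed sign without AngII+HNG replicate 3 or AngII replicate 1, and from 0.012 to 0.054 for Ppard.

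MOTS-c was compared with AngII alone in the same way, and the AngII libraries are shared with the previous comparison. With MOTS-c, 0 of 42 members were called, against 0.0069% of 14488 genes, which is 1 gene, and 0 of 42 had an unadjusted p below 0.05, against 5.05%. No member separated the groups, against 3.44% of all genes. A total of 16 of 42 differences pointed up (38.1%), against 49.6% of all genes, with a median log2 difference of -0.0076 against -0.00076. Intervals lay within 1.3-fold for 40 of 42 members, all but Ehhadh and Ppargc1b, and within 1.5-fold for all 42.

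No role had a median difference beyond 0.051 either way with MOTS-c. All 5 genes of pyruvate entry pointed down (median -0.049), as did 12 of 13 TCA cycle genes (median -0.0175), all but Idh3b. The dehydrogenase and electron transfer group had 3 of 7 up (-0.0158) and the hydration and thiolysis group 3 of 5 (0.0038). The carnitine shuttle had 3 of 4 up (0.040), as had the auxiliary enzymes (0.051) and the regulators (0.041). The difference between these roles was not tested either. Among the 12 cardiomyocyte markers, 4 pointed up and 8 down in this comparison, beside 49.6% of all genes up. Their median log2 difference was -0.039, and 0 were called. The part of myocytes in the member values was not tested here.

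The smallest p belonged to Dld, which measured 180.6, 181.0, 177.5 and 172.1 CPM with AngII and 170.9, 173.6, 171.2 and 168.1 CPM with AngII+MOTS-c. AngII replicate 4 lay within the AngII+MOTS-c range, and the log2 difference was -0.056 (95% interval -0.12 to 0.0062, adjusted p = 0.924, edgeR with Benjamini-Hochberg adjustment), or -0.036 on log2 FPKM with limma. Sucla2 measured 92.6, 94.4, 95.03 and 94.0 CPM with AngII and 93.1, 92.9, 81.0 and 90.0 CPM with AngII+MOTS-c, a difference of -0.073 (-0.16 to 0.016, adjusted p = 0.924, edgeR). A single library, AngII+MOTS-c replicate 3, held the low value, and without it the difference was -0.031 (adjusted p = 0.963).

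Idh2 measured 161.5, 165.8, 160.0 and 166.9 CPM with AngII and 157.7, 160.2, 150.8 and 162.1 CPM with AngII+MOTS-c, a difference of -0.052 (-0.12 to 0.016, adjusted p = 0.924, edgeR). The groups overlapped, and without AngII+MOTS-c replicate 3 the difference was -0.032 (adjusted p = 0.959). For the regulators the log2 differences with MOTS-c were 0.080 for Ppargc1a (-0.17 to 0.33), 0.21 for Ppargc1b (-0.12 to 0.54), -0.0076 for Ppara (-0.17 to 0.15) and 0.0021 for Ppard (-0.11 to 0.11). Leaving out 1 library turned the sign for Ppargc1a (-0.027 without AngII+MOTS-c replicate 2), Ppara and Ppard, and the difference of Ppargc1b was 0.080 without AngII replicate 3. On log2 FPKM with limma the difference of Ppard was 0.18 to 0.20 with MOTS-c and 0.14 to 0.15 with HNG, on the scale that carries its additional spread between libraries (adjusted p = 0.902 to 0.909 and 0.514 to 0.522). On that scale the difference of Ppargc1a with HNG against AngII was 0.229 to 0.325 (adjusted p = 0.46 to 0.464, limma), beside 0.168 on counts.

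**Figure D3:**
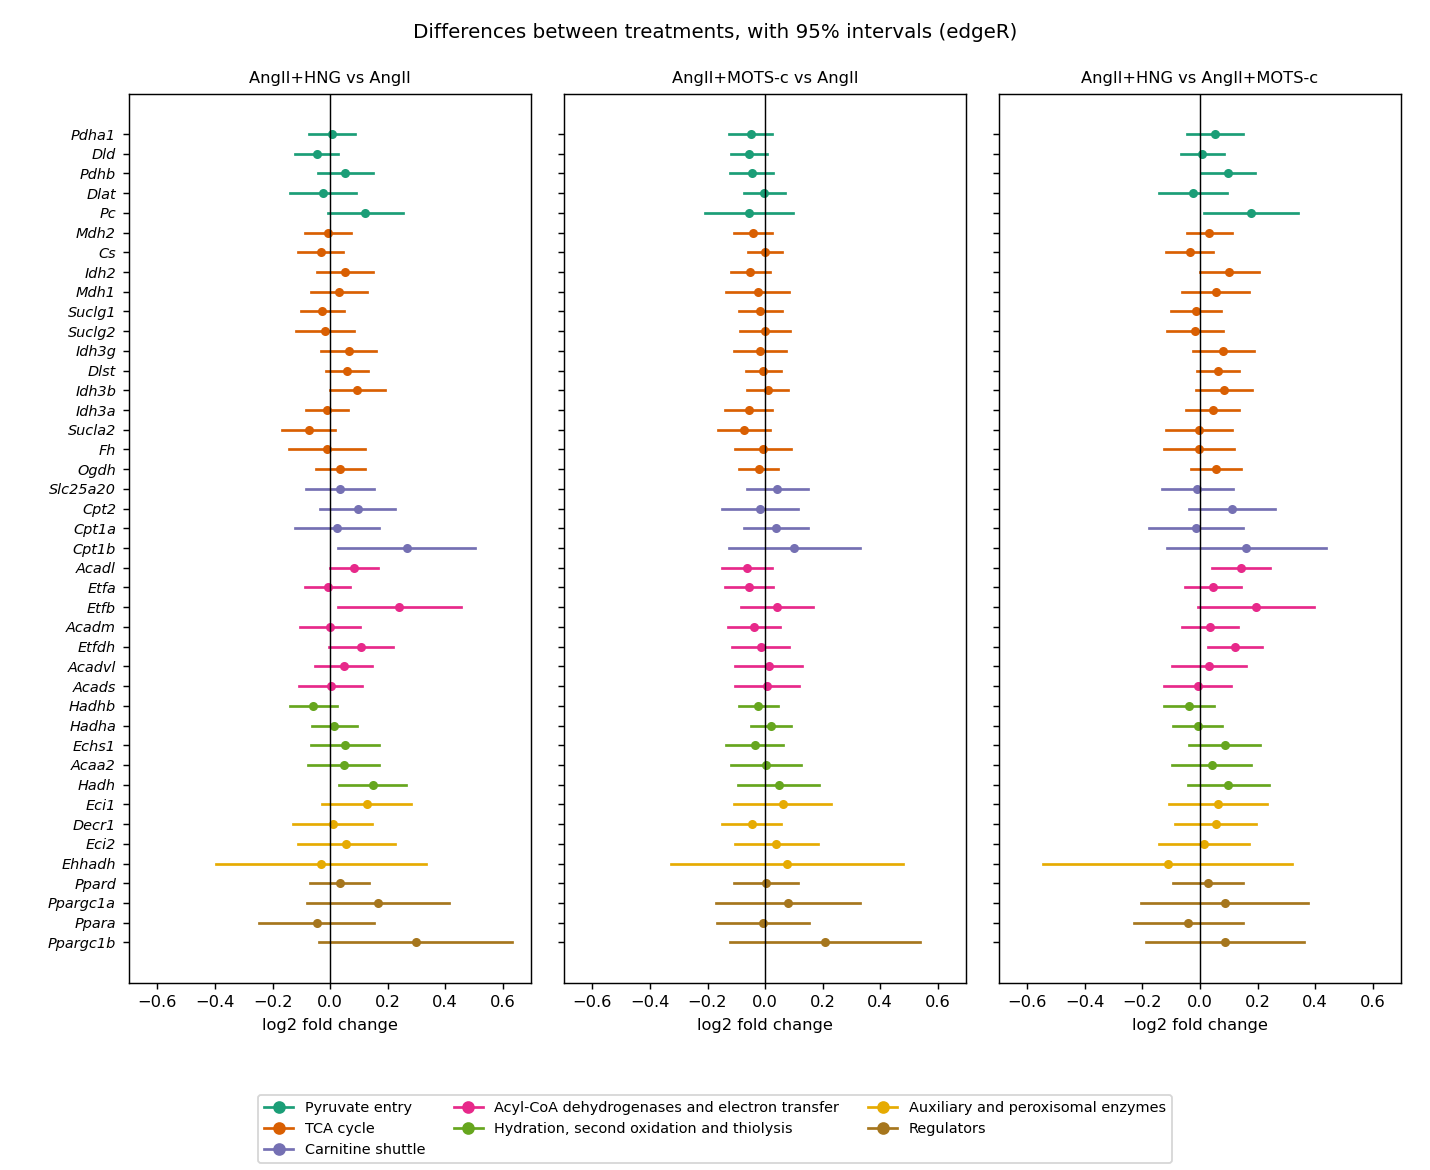
Log2 fold change of the 42 members in the 3 comparisons, with 95% intervals from the edgeR fit, ordered and coloured by role. No interval reaches beyond -0.54 or 0.63, and the intervals of Ehhadh, Ppargc1b, Ppargc1a and Cpt1b are the widest.

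HNG was then compared with MOTS-c directly. Here 0 of 42 members were called, against 4.41% of 14448 genes, and 4 of 42 had an unadjusted p below 0.05, against 19.3%. Higher with HNG were 29 of 42 (69%), against 50.6% of all genes, with a median log2 difference of 0.045 against 0.0023, and 39 of 42 intervals lay within 1.3-fold and 42 of 42 within 1.5-fold. With the length trend removed the median of the members was 0.0195. Cardiomyocyte markers leaned the same way, with 10 of 12 pointing up and 2 down, beside 50.6% of all genes up. Their median log2 difference was 0.147, from -0.156 to 0.536, and 1 was called, beside 4.41%. What myocytes contributed to the member values was not tested.

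The 4 members that did not overlap, against 12.5% of all genes, were Acadl, Etfdh, Pdhb and Dlst, each higher with HNG, as 6.44% of all genes were. Acadl measured 112.0, 105.7, 114.1 and 111.3 CPM with AngII+HNG and 96.1, 105.7, 94.9 and 104.5 CPM with AngII+MOTS-c, a log2 difference of 0.14 (0.041 to 0.24, adjusted p = 0.111, edgeR with Benjamini-Hochberg adjustment). The nearest libraries of the 2 groups were equal to the printed digits, and the AngII libraries, at 100.5 to 106.4 CPM, overlapped both.

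Etfdh measured 57.4, 55.4, 54.4 and 58.1 CPM with AngII+HNG and 52.1, 53.0, 51.8 and 49.9 CPM with AngII+MOTS-c, a difference of 0.12 (0.028 to 0.22, adjusted p = 0.139, edgeR). Pc measured 21.4, 20.4, 21.9 and 19.2 CPM with AngII+HNG and 19.7, 19.6, 17.9 and 16.1 CPM with AngII+MOTS-c, a difference of 0.18 (0.012 to 0.34, adjusted p = 0.226, edgeR). Its groups overlapped through AngII+HNG replicate 4.

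Pdhb lay at 74.8 to 82.2 CPM against 70.4 to 74.7 CPM, a log2 difference of 0.097 (adjusted p = 0.244, edgeR), and Dlst at 158.6 to 161.7 CPM against 152.5 to 154.8 CPM, a difference of 0.062 (adjusted p = 0.343, edgeR). Pdhb and Dlst are named for their lack of overlap, after their values were seen.

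**Figure D4:**
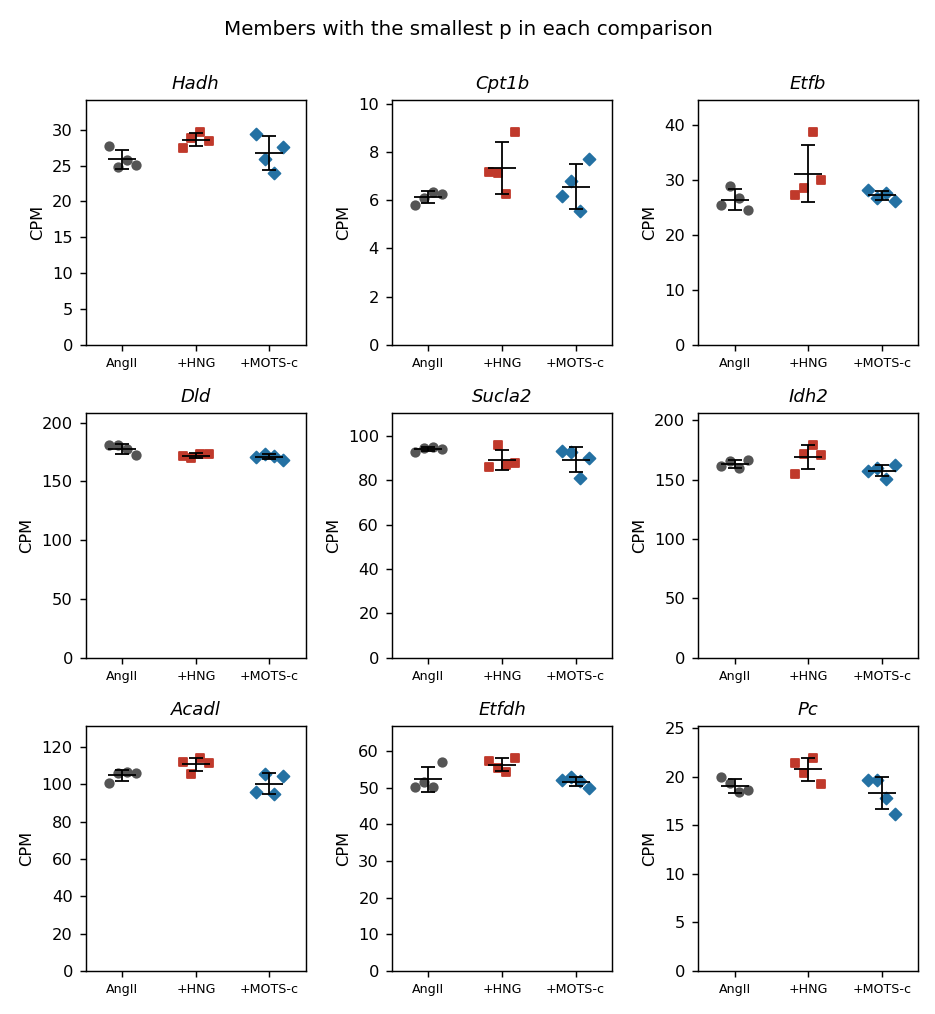
CPM by library for the 3 members with the smallest p in each comparison, in panels of their own with axes from 0. Points are libraries, the bar is the mean and the whiskers are 1 SD (n = 4). The treatments differ by little beside the level of each gene, and the high Etfb point of 38.8 CPM is AngII+HNG replicate 3.

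Other genes around these pathways were listed to give the members a context, 87 genes of which 82 passed the filter. With HNG, 4 of 82 were called higher and 1 lower than with AngII, beside a background of 5.98%. With MOTS-c, 0 of 82 were called. Between the peptides, HNG had 4 of 82 higher and 1 lower, beside 4.41%. The comparisons share libraries, and their values are given side by side.

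Fabp4, a fatty acid carrier of the cytosol, had the largest difference among the called genes of these lists in both comparisons with HNG. It measured 5.70, 4.85, 5.84 and 6.16 CPM with AngII, 8.04, 8.55, 7.59 and 8.66 with AngII+HNG, and 4.67, 4.82, 3.89 and 4.78 with AngII+MOTS-c. All AngII+HNG libraries lay above all others, and the log2 difference was 0.54 (0.33 to 0.76, adjusted p = 0.00638) against AngII and 0.85 (0.63 to 1.07, adjusted p = 0.000638) against MOTS-c, in the quasi-likelihood test of edgeR, with p adjusted by Benjamini-Hochberg. The adipocyte markers summed to at most 1.04 CPM in every library. Slc27a1, a fatty acid transport protein, measured 53.8 to 57.1 CPM with AngII, 63.0 to 72.9 with AngII+HNG and 53.5 to 58.0 with AngII+MOTS-c. It rose by 0.27 with HNG (0.16 to 0.39, adjusted p = 0.00868) and was 0.25 higher than with MOTS-c (adjusted p = 0.0153, edgeR), a call that ended without AngII+MOTS-c replicate 1 (0.0545) or 2 (0.0748) and without the libraries numbered 4 (0.0777).

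Markers of other cell types were read beside these genes. Their calls with HNG against AngII stand beside 5.98% of all genes called in that comparison. The 10 macrophage markers summed to 343 to 448 CPM with AngII+HNG, 248 to 303 CPM with AngII and 245 to 299 CPM with AngII+MOTS-c, with 4 of 9 tested genes (Lyz2, Cd68, Mrc1 and Ptprc) called higher with HNG than with AngII. The other 5 were not called, and 2 of them pointed down, Adgre1 (log2 difference -0.36) and C1qb (-0.046). Endothelial markers summed to 91.7 to 101.3 CPM, against 73.2 to 81.7 and 76.03 to 81.6 CPM, and 3 of 8 (Kdr, Tek and Tie1) were called higher, while Erg (-0.30) and Emcn (-0.185) pointed down and were not called. Smooth muscle and pericyte markers summed to 5426 to 5988 CPM, against 6823 to 7108 CPM with AngII and 6437 to 7037 CPM with MOTS-c, with 4 of 7 (Myh11, Cnn1, Acta2 and Tagln) called lower and Des, at 0.023, the 1 that pointed up. Epicardial markers summed to 43.5 to 51.1 CPM, against 40.5 to 50.3 and 41.8 to 45.7 CPM, and 1 of 4, Upk1b, was called higher with HNG (0.81 against AngII, adjusted p = 0.00776, edgeR). Of these 4, 2 pointed up and 2 down against AngII, the lowest at -0.047. Of the 12 fibroblast markers Tcf21 (0.28) and Thy1 (0.17) were called higher with HNG than with AngII. In all, 9 of the 12 pointed up and 3 down, the lowest at -0.068, with a median of 0.0285. Of the tested Schwann markers, 0 of 3 were called. The part of these cells in the pathway genes called with HNG was not tested.

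Of 11 peroxisomal oxidation genes 10 pointed up with HNG against AngII and 1 was called, beside 51.3% and 5.98% of all genes. With MOTS-c against AngII, 8 of 11 pointed up, beside 49.6% of all genes. Acaa1a, a peroxisomal thiolase, measured 21.3 to 24.0 CPM with AngII and 25.99 to 27.7 with AngII+HNG, a log2 difference of 0.27 (0.15 to 0.39, adjusted p = 0.0122, edgeR). The call was lost without AngII replicate 2 (difference 0.244, adjusted p = 0.0532) and without the libraries numbered 4 (0.251, adjusted p = 0.0704). Against MOTS-c the log2 difference was 0.19 (adjusted p = 0.111, edgeR), which was not called.

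Rxra, the retinoid receptor that pairs with PPARs, measured 52.0 to 60.8 CPM with AngII, 63.8 to 70.1 with AngII+HNG and 54.1 to 58.7 with AngII+MOTS-c. It was higher with HNG by 0.24 against AngII (adjusted p = 0.0257) and by 0.20 against MOTS-c (adjusted p = 0.031). Leaving out AngII+HNG replicate 2 or 4, or AngII replicate 1, 2 or 3, raised the first to adjusted p of 0.0512 to 0.102, and leaving out AngII+HNG replicate 2 or 4, or any 1 AngII+MOTS-c library, raised the second to 0.054 to 0.114. With replicates 2 and 3 summed the adjusted p were 0.0612 and 0.0525, and without the libraries numbered 4 the second was 0.123. On log2 FPKM with limma the differences were 0.12 to 0.13 (adjusted p = 0.716 to 0.72) and 0.33 to 0.35 (0.269 to 0.28).

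Vnn1, a pantetheinase, was 0.39 higher with HNG than with MOTS-c (adjusted p = 0.0236), at 50.4 to 67.9 CPM against 42.1 to 52.0 CPM. That call ended without AngII+HNG replicate 2 or 4 or AngII+MOTS-c replicate 1, 3 or 4, with adjusted p up to 0.081. It also ended without the libraries numbered 4 (difference 0.309, adjusted p = 0.141) and on log2 FPKM with limma (adjusted p = 0.0506 to 0.0562). Against AngII the difference of Vnn1 with HNG was 0.20 (adjusted p = 0.175), which was not called in edgeR's test with Benjamini-Hochberg adjustment.

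Me1, the cytosolic malic enzyme that makes NADPH from malate, was the only one of the 82 called lower, while 29 of 82 pointed down with HNG against AngII. It measured 235.8, 239.8, 230.1 and 233.3 CPM with AngII, 208.5, 205.2, 177.3 and 191.8 with AngII+HNG, and 235.3, 242.3, 227.0 and 235.5 with AngII+MOTS-c. The AngII+HNG libraries lay below all others, and the log2 difference was -0.26 against AngII (-0.37 to -0.16, adjusted p = 0.00746) and -0.27 against MOTS-c (-0.38 to -0.16, adjusted p = 0.0102), in edgeR's quasi-likelihood test, Benjamini-Hochberg adjusted. The second call ended without the libraries numbered 4 (-0.252, adjusted p = 0.067).

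**Figure D5:**
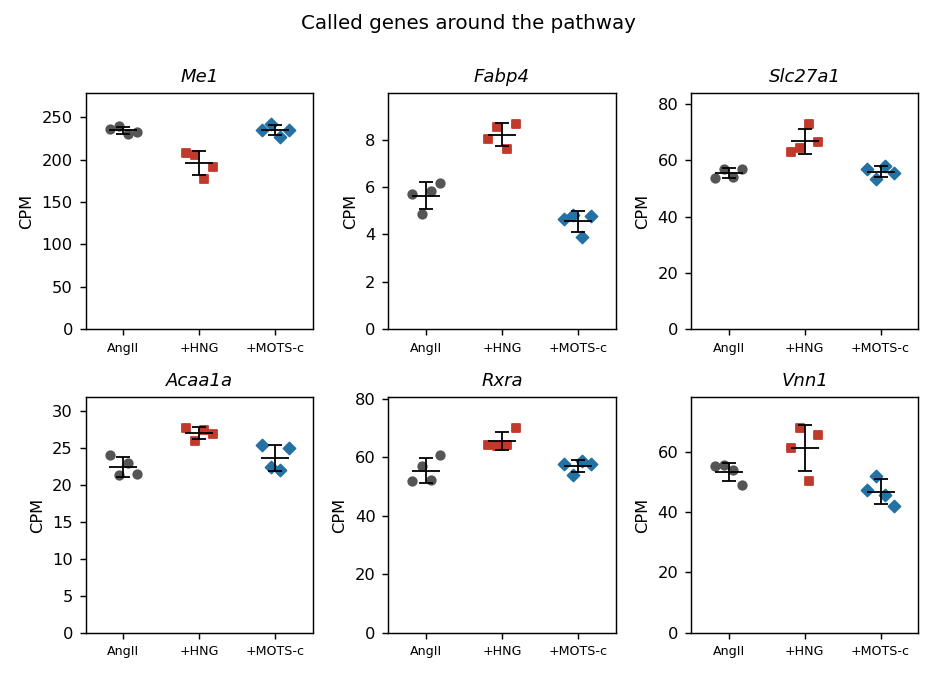
CPM by library for the 6 listed genes outside the members that were called in at least 1 comparison, each panel with an axis from 0. Points are libraries, the bar is the mean and the whiskers are 1 SD (n = 4). Fabp4 stands at 7.59 to 8.66 CPM with AngII+HNG, above all other libraries, and Me1 at 177.3 to 208.5 CPM, below all others.

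Calls by list were few, and the counts are set beside 5.98% of all genes called with HNG against AngII and 4.41% against MOTS-c. Of the 7 TCA cycle enzymes outside the members (aconitases, Idh1 and the complex II subunits), 0 were called in any comparison, nor were any of 10 genes of pyruvate import and pyruvate dehydrogenase regulation or of 8 further mitochondrial acyl-CoA enzymes. Of 15 tested fatty acid uptake and activation genes, 2 were called with HNG, and 11 of 15 pointed down. Among 6 tested PPAR target genes 0 were called against AngII and 1, Vnn1, against MOTS-c. With HNG against AngII, 3 of these 6 had an unadjusted p below 0.05 in edgeR's test, against 20.3% of all genes. Of the 6, 4 pointed up and 2 down, with log2 differences from -1.05 to 0.386. Acsl6, Rxrg, Plin5, Ucp3 and Fgf21 were too low to test.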

How the data were processed

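mRNA libraries of 12 fibroblast samples, 4 per treatment, were sequenced as paired-end reads on a DNBSEQ platform. The authors deposited unnormalized read counts for each gene and FPKM values of the same genes, scaled by the authors to gene length and library total. HISAT2, Picard 1.41 and SAMtools 0.1.18 are named in the submitters' processing notes without roles. The counting tool, use of strand, genome build and annotation are not given in the sources used here, so overlapping and antisense genes may share reads. Treatments and replicate numbers were read from the sample titles, and doses, times and the plating step from the study's methods.

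The count test was run in edgeR 4.0.16 under R 4.3.3 (filterByExpr, TMM scaling, glmQLFit and glmQLFTest, two-sided, Benjamini-Hochberg over all genes tested, threshold 0.05), each comparison on its own 8 libraries. Standard errors and 95% intervals were derived from the F statistic. FPKM served for levels and, on a log2 scale with a pseudocount of 1 or 0.1, for limma. A floor of 3 counts corresponds to 0.0787 to 0.107 CPM. Alternatives used limma 3.58.1, DESeq2 1.42.0, other scaling, no filter, all 12 libraries, a replicate block, summed replicates 2 and 3, whose library names share a number, and left-out libraries. No pair of libraries of a group agreed within sampling noise. The calculation was tested on simulated counts.

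The members and the other lists were chosen with earlier results of these data known, and 2 listed genes outside the members are not reported here. By rule, values were given for members with adjusted p below 0.05, the highest and lowest member of each role, the 3 smallest p of each comparison and the 4 regulators, and for other listed genes called in at least 1 comparison. The deviations of libraries with the same replicate number correlated by -0.0278 to 0.115 with HNG against AngII, 0.0213 to 0.134 with MOTS-c against AngII and -0.0062 to 0.246 between the peptides, highest each time for the libraries numbered 4. In the library names, replicate 1 bears the number 1 with AngII and AngII+HNG but 2 with AngII+MOTS-c. In no comparison did every pair exceed 0.1, so the replicate numbers were not used as pairs. Promoter windows came from RefSeq (GRCr8), whose gene table matched all 42 members and whose windows covered 35, Pc, Idh3a, Cpt1b, Acadl, Acaa2, Decr1 and Ppard being without one.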

Additional observations from a re-analysis of the deposited data

Results flagged for a closer look

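Among 27 genes tested in 81 groups of 4 libraries, 4 libraries lay far from the other 3 of their group by Dixon's test, and chance alone gives about 1 in 20 groups. Pdha1 stood at 433.5 CPM in AngII replicate 4, against 444 to 445.2 CPM in the others. Acadl stood at 100.5 CPM in AngII replicate 1, against 105.9 to 106.4 CPM. Fabp4 stood at 3.89 CPM in AngII+MOTS-c replicate 3, against 4.67 to 4.82 CPM, and Rxra at 70.1 CPM in AngII+HNG replicate 4, against 63.8 to 64.2 CPM.

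The effects of HNG and MOTS-c on top of the same AngII treatment differed for 5 genes outside the members when AngII+HNG was set against AngII+MOTS-c by the edgeR quasi-likelihood test, p adjusted by Benjamini-Hochberg. The log2 differences were -0.27 for Me1 (adjusted p = 0.0102), 0.85 for Fabp4 (0.000638), 0.25 for Slc27a1 (0.0153), 0.20 for Rxra (0.031) and 0.39 for Vnn1 (0.0236).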

How the results depend on the processing

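No member was called in any comparison under any of the 17 alternatives. The differences of the 3 members with the smallest p in each comparison kept their direction under all 17. So did those of Idh3b with HNG against AngII, Pdhb with HNG against MOTS-c, and Dlst with HNG in both comparisons. Ppargc1b kept its direction against AngII with either peptide, and each gene called outside the members did so where it was called. The differences against AngII of Ppara with either peptide and of Ppard and Ppargc1a with MOTS-c did not keep their direction under all 17. With a library left out, Ppara ran from -0.0974 to 0.0127 with HNG and from -0.0445 to 0.0458 with MOTS-c, and with MOTS-c Ppard ran from -0.0373 to 0.0325 and Ppargc1a from -0.0266 to 0.177. Ppard with MOTS-c was also -0.0188 with replicates 2 and 3 summed and -0.00272 without the libraries numbered 4. Of the calls outside the members with HNG against AngII, those of Fabp4, Me1 and Slc27a1 held under all 17, while 2 alternatives ended that of Acaa1a and 8 that of Rxra. Between HNG and MOTS-c the call of Fabp4 held under all 17, while 1 ended that of Me1 (without the libraries numbered 4), 3 Slc27a1, 10 Rxra and 8 Vnn1. The count over all genes depended on the setting. With HNG against AngII it was 869, and 577 with replicates 2 and 3 summed, 541 without the libraries numbered 4 and 431 to 932 when each library was left out in turn, lowest without AngII replicate 1. With MOTS-c it was 1, and 0 with all 12 libraries in the fit, 0 with replicates summed, 0 without the libraries numbered 4, 3 with DESeq2 and 0 to 3 with a library left out. Between HNG and MOTS-c it was 637, and 975 with all 12 libraries, 1042 with DESeq2, 377 without the libraries numbered 4 and 322 to 625 with a library left out, lowest without AngII+MOTS-c replicate 2. Blocking on the replicate number, a replicate block that the labels do not call a pairing, gave counts of 1111, 2 and 1054. The median of the members ran from -0.0263 to -0.0012 with MOTS-c and from 0.027 to 0.056 between HNG and MOTS-c with a library left out, and was 0.0195 between them with the length trend removed. The cause was not tested in any of these cases.

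The lowest members, such as Ehhadh and Ppargc1b, rest on the fewest counts, and their intervals were the widest. The gene symbol is the only link to RefSeq, and the genome build of the tables was not compared with GRCr8.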

Other observations

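Pathway genes outside the members covered a wide range of levels. Fabp5, Fabp3 and Fabp4, carriers of fatty acids, averaged 136.2, 51.7 and 8.83 FPKM over the 12 libraries, and Cd36, a fatty acid uptake receptor, 2.17 FPKM. Among the acyl-CoA synthetases, Acsl3 averaged 41.2, Acsl5 33.9, Acsl4 23.2 and Acsl1, the form best known from heart and fat, 6.35 FPKM. Of the pyruvate dehydrogenase kinases, Pdk2 and Pdk1 averaged 9.06 and 8.55 FPKM and Pdk4 1.08 FPKM. Of the PPAR target genes, Ucp2 and Plin2 averaged 46.1 and 43.5 FPKM, while Angptl4 averaged 0.163 FPKM and Plin5 and Ucp3 were listed at 0. They were picked with their values in view and are a description of levels.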
